A study of Drosophila melanogaster with 32 samples.

Results

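The comparison described here asks which transcripts changed in 1 sex only, or in opposite directions in the 2 sexes, in flies with a P-element insertion in crooked legs (crol). The members are 8 of the 32 arrays of the series, 2 for each sex of the crol line and 2 for each sex of its control, and they were taken by their labels. The 4 groups are crol males, control males, crol females and control females. All flies were virgins frozen at 42 days of age, and whole bodies were pooled for each array, so that a change in the number of cells of a type and a change in RNA per cell cannot be told apart. The crol line is homozygous for a single insertion in the Canton S F background, which the control shares without the insertion, and it stands for 1 insertion line. The remaining 24 arrays hold males and females of 6 other long-lived insertion lines (pyd, mub, CG10990, CG9238, BG00817 and esg). The 2 arrays of a group came from separate pools of flies. Whether these pools were raised apart is not stated, and the p-values therefore cover the variation among these arrays alone, part of which may be technical.

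Males and females of Drosophila differ in the abundance of most transcripts, because testis, accessory gland and ovary are large parts of the body and because fat body, gut and head also differ between the sexes. A mutation can therefore act on a tissue that only 1 sex has, or shift a tissue that both share by different amounts. crol encodes a zinc finger transcription factor of the ecdysone response. Antimicrobial peptides are small secreted proteins that the fat body makes under control of the Toll and Imd pathways, and the ovary makes the yolk, chorion and vitelline membrane proteins of the egg.

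Every value is a signal of a probe set of the Drosophila Genome 2.0 array, on a linear scale, and changes are given as log2 of crol over control. Arrays had the same scaled mean, but the median over the whole array was 131.7 to 139.1 in males and 49.2 to 58.3 in females. Many transcripts of male organs lay under 50 on female arrays. Signals under 50 have no order here. Replicate arrays of the 4 groups correlated at r = 0.973 to 0.985 on log2 signal. The log2 ratio of 3′ to 5′ control probe sets, a measure of RNA integrity, was 0.67 and 1.53 on the crol male arrays and 1.48 and 1.22 on the crol female arrays, against 0.80 and 0.92 in control males and 0.71 and 0.83 in control females. Its part in the results was not tested.

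The probe set that the study assigns to crol had a signal of 586 and 818 in crol males, against 836 and 897 in control males, and 352 and 247 in crol females, against 355 and 383 in control females. The male arrays did not overlap, and 1 crol female array lay just under the lower control female array, the other further below. The change was -0.32 ± 0.23 in males (adjusted p = 0.469) and -0.33 ± 0.23 in females (adjusted p = 0.522), and the difference between the sexes was 0.00 ± 0.33. Neither change passed the test.

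For each probe set the change in males (crol males minus control males) was set against the change in females (crol females minus control females), and the difference given is the change in males minus that in females, on the log2 scale ± SE. Of 12518 probe sets, 41 passed this test at an adjusted p up to 0.05 (0.328%; limma, 8 arrays, Benjamini-Hochberg), 24 with a higher change in males (0.192%) and 17 with a higher change in females (0.136%). The unadjusted p was under 0.05 for 1998, and the smallest adjusted p was 0.0377. Within a sex, 89 probe sets differed between crol and control males (0.711%), 39 higher (0.312%) and 50 lower (0.399%) in crol, and 302 between crol and control females (2.41%), 198 higher (1.58%) and 104 lower (0.831%). Of the 24, 17 were called in females only, 3 in males only, 3 in both sexes and 1 in neither. Of the 17, 13 were called in females only and 4 in males only. The change had opposite signs in the 2 sexes for 18 of the 24 and 14 of the 17. Both crol arrays lay on one side of both control arrays in males and on the other side in females for 18 of the 24 and 12 of the 17, as they did for 11.4% of all probe sets. These counts include probe sets under 50 on all 4 arrays of a sex, whose sign and side there have no order. All 4 female arrays were under 50 for 14 of the 24 and 3 of the 17, and all 4 male arrays for 1 of the 17. Both crol arrays were on 1 side of both control arrays for 61% of all probe sets in males and 49.3% in females.

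**Figure D1:**
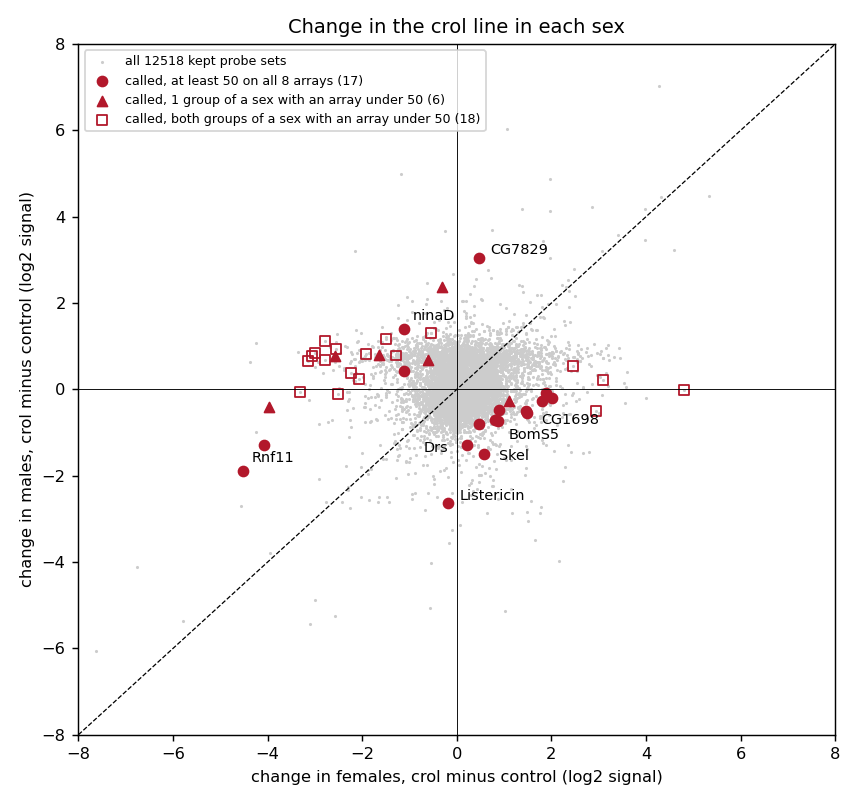
Change in females (x axis) against change in males (y axis), both as log2 of crol over control, for 12518 probe sets, with the 41 that differed between the sexes in red and equal change on the dashed line. Filled points have signals of at least 50 on all 8 arrays (17) or carry a bound in a sex where 1 group has an array under 50 (6), and the 18 open squares, with signals under 50 in both groups of a sex, have no measured change in that sex.

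These calls rest on 2 arrays a group. Without 1 of the 8 arrays, 0 to 17 probe sets were called. None was called without either crol male array, either control male array or control female replicate 2 (unadjusted p under 0.05 for 1329 to 2206), 8 without crol female replicate 1, 15 without crol female replicate 2 and 17 without control female replicate 1. With the spread estimated from all 32 arrays, the same contrast called 317 probe sets (2.53%), 81 with a higher change in males (0.647%) and 236 with a higher change in females (1.89%), and these held 23 of the 41. Within a sex, that spread called 715 probe sets in males (5.71%), 234 higher (1.87%) and 481 lower (3.84%), and 607 in females (4.85%), 445 higher (3.55%) and 162 lower (1.29%). Adjusted p-values are those of the 8-array fit unless the 32 arrays are named. The called genes eIF4E5, Jhbp6, sit, jeb, CG30116, CG43052, CG33340 and CG8813 lie outside the rule for named genes, as does every gene named here that was not called for the difference on 8 arrays, other than crol and tay, and all of these were chosen after their values were seen.

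Of the 24 probe sets with a higher change in males, 5 had signals of at least 50 on all 8 arrays. Both probe sets of Rnf11 on chromosome 4, which encodes a RING finger protein, were among them. The first had 473 and 428 in crol males, against 1492 and 1887 in control males, and 249.8 and 239.9 in crol females, against 5413 and 5885 in control females. The second had 897 and 1188 in crol males, against 2560.1 and 2445 in control males, and 206 and 240.4 in crol females, against 3661 and 3817 in control females. Every crol array lay below every control array of its sex, and control females were the brightest group. The first probe set fell 3.73-fold in males (adjusted p = 0.00913) and 23.1-fold in females (adjusted p = 0.00059), with a difference 2.63 ± 0.21, adjusted p = 0.0377. The second fell 2.42-fold in males (adjusted p = 0.0499) and 16.8-fold in females (adjusted p = 0.00132), with a difference 2.79 ± 0.23, adjusted p = 0.0377. The sexes differed in the size of the decrease and not in its direction.

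CG7829 on 3R, a predicted serine protease, had 584 and 503 in crol males, against 68.1 and 63.2 in control males, and 102 and 83.9 in crol females, against 66.6 and 66.4 in control females. The crol males stood apart from the 6 other arrays. CG7829 rose 8.26-fold in males, and the change was 0.48 ± 0.14 in females (adjusted p = 0.172) (difference 2.57 ± 0.20, adjusted p = 0.0377). ninaD on 2L encodes a scavenger receptor needed for carotenoid uptake and so for the visual chromophore. It had 573 and 556 in crol males, against 233 and 200.03 in control males, and 68.2 and 84.5 in crol females, against 186 and 146 in control females. Crol males were above and crol females below their controls on every array. It rose 2.62-fold in males (adjusted p = 0.0476) and fell 2.17-fold in females (adjusted p = 0.0431), and it was the only probe set of the 41 called in both sexes with opposite signs (difference 2.51 ± 0.25, adjusted p = 0.0471). tut on 3L, an RNA-binding partner of the germline differentiation factor Bam, had 133 and 133 in crol males, against 96.7 and 102 in control males, and 155 and 151 in crol females, against 311 and 356 in control females. The groups did not overlap in either sex. The change was 0.42 ± 0.11 in males (adjusted p = 0.136) and -1.12 ± 0.11 in females (adjusted p = 0.0128) (difference 1.54 ± 0.15, adjusted p = 0.0471).

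For 5 further probe sets a group of 1 or both sexes had arrays under 50, so that the change there is a bound. CG15263 on 2L had 2673 and 2835 in crol males, against 3698 and 3655 in control males, and 16.2 and 23.1 in crol females, against 345 and 264 in control females. It was at least 6.03-fold lower in crol females, with a change in males of -0.42 (difference 3.54 ± 0.30, adjusted p = 0.0377). dany on 2R had 80.4 and 90.9 in crol males, against 56.1 and 43.6 in control males, and 30.6 and 38.3 in crol females, against 117 and 99.5 in control females, at least 2.16-fold lower in crol females and at least 1.61-fold higher in crol males (difference 2.44 ± 0.27, adjusted p = 0.0471, and 0.0997 with 32 arrays). CG17650 on 2L had 361 and 412 in crol males, against 243 and 237 in control males, and 37.2 and 36.7 in crol females, against 56.6 and 56.7 in control females (difference 1.30 ± 0.15, adjusted p = 0.0498). CG17343 on 2L had 67.0 and 58.8 in crol males, against 14.3 and 10.4 in control males, and 116 and 90.7 in crol females, against 123 and 131 in control females. There both control male arrays were under 50 and crol males just above it (difference 2.67 ± 0.29, adjusted p = 0.0471, and 0.161 with 32 arrays). In each of these 4 genes the crol arrays lay above the control arrays in males or below them in females without overlap. The last of the 5 has no gene symbol here.

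In the remaining 14 of the 24 all 4 female arrays were under 50, so that only the change in males can be read (for jeb, with both control male arrays also under 50, only a bound), and the calls that 13 of them had in females rest on signals with no order. The 14 were hog on the X, CG11694, CG31021, sit and CG33340 on 3R, CG32832, CG42266, CG5561, CG9316 and CG8813 on 2L, jeb on 2R, and eIF4E5, Jhbp6 and Acp63F on 3L. eIF4E5, which encodes a cap-binding translation factor, had 1898 and 2486 in crol males, against 1344 and 1186 in control males. CG33340 had 6882 and 8798 in crol males, against 4806 and 4238 in control males, and CG32832 had 671 and 743 in crol males, against 344 and 284 in control males. Crol males were above control males on both arrays in these 3 genes. Acp63F, an accessory gland peptide, had 5949 and 5523 in crol males, against 5984 and 5919 in control males, which overlap. Among the 14, only CG9316 (135 and 120.2 in crol males, against 50.7 and 52.1 in control males) was called in males (adjusted p = 0.0262), and this call was lost with the spread of 32 arrays (adjusted p = 0.415). With that spread the difference passed the test for CG42266, CG33340 and CG8813 among the 14. Over all 2456 probe sets that were under 50 on every female array, the median change was 0.62 in males.

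Genes of the testis were also brighter on the crol male arrays. In the list of testis and sperm genes, 34 of 43 entries were measured, 33 had both crol male arrays above both control male arrays, which 27% of all probe sets did, and the median change in males was 0.68 against -0.05 over all genes. None of the 34 was called in males. Their summed signal was 88996 and 103256 in crol males, against 67199.8 and 59787 in control males, and 734 and 645 in crol females, against 607 and 686 in control females. The accessory gland and ejaculatory bulb list had a median of 0.17 in males over 29 genes. Of these, 15 were above and 3 below their controls on both arrays (27% and 34% of all probe sets). The part of these organs in the male calls was not tested.

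Drs, Listericin, BomS5 and NimB4 were among the 17 probe sets with a higher change in females. They are put together here by their known roles and not by a list. Drs on 3L encodes Drosomycin, an antifungal peptide of the Toll pathway. It had 4707 and 4792 in crol males, against 11119.6 and 11978 in control males, and 10389 and 10787 in crol females, against 9168 and 9142 in control females. Crol males were below all 6 other arrays. Drs fell 2.43-fold in males (adjusted p = 0.00903), and its change was 0.21 ± 0.09 in females (adjusted p = 0.329) (difference -1.49 ± 0.13, adjusted p = 0.0397). Listericin on 2R, an antibacterial peptide gene, had 1203 and 1168 in crol males, against 7089.9 and 7644 in control males, and 997 and 1322 in crol females, against 1436 and 1173 in control females. Control males stood apart, and the other 6 arrays overlapped. Listericin fell 6.21-fold in males (adjusted p = 0.00893) and had a change of -0.18 in females (difference -2.46 ± 0.25, adjusted p = 0.0471). BomS5 on 2R, a bomanin, among the short peptides that Toll signalling induces, had 4063 and 3739 in crol males, against 6522 and 6479 in control males, and 2638 and 2818 in crol females, against 1632 and 1366 in control females. Crol males were below control males and crol females above control females. It rose 1.83-fold in females (adjusted p = 0.0332), with a change of -0.74 ± 0.12 in males (adjusted p = 0.0733) (difference -1.61 ± 0.18, adjusted p = 0.0471). NimB4 on 2L, a secreted Nimrod protein that helps haemocytes clear apoptotic cells, had 286 and 285 in crol males, against 480.4 and 518 in control males, and 280.4 and 297 in crol females, against 218 and 202 in control females. It fell 1.75-fold in males (adjusted p = 0.0454), and crol female arrays were the higher ones (difference -1.27 ± 0.14, adjusted p = 0.0498).

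The antimicrobial peptide genes as a list had differences below 0. Of 27 listed genes 13 were kept, and 9 of these had signals of at least 50 on all 8 arrays. All 13 had a difference below 0, as had 5871 of 10253 genes, and the median was -2.55 against -0.07 over all genes. The median change was -1.95 in males and 1.02 in females, against -0.05 in males and -0.01 in females over all genes. With signals under 50 raised to 50, the median change was -1.28 in males and 0.60 in females, and the median difference was -1.49. The summed signal of the 13, which the brightest genes dominate, was 53373 and 53415 in crol males, against 61505 and 67450.3 in control males, and 43003 and 49309 in crol females, against 29613 and 26369 in control females. In males 9 of the 13 lay below control males on both arrays (34% of all probe sets did) and 2 above, while in females 9 lay above (23.8% did) and none below. Drs was the only one called on 8 arrays, and Drs, Def, BomS2 and Drsl2 were called with the spread of 32 arrays. Def (defensin) had 804 and 839 in crol males, against 3455 and 3975 in control males, and 1125 and 1551 in crol females, against 1304 and 878 in control females (difference -2.48 ± 0.34, adjusted p = 0.0633, and 0.0254 with 32 arrays). Mtk (metchnikowin) had 1851 and 5195 in crol males, against 11411 and 13212 in control males, and 2064 and 4689 in crol females, against 1628 and 817 in control females (difference -3.42 ± 0.91, adjusted p = 0.171). DptB (diptericin B) had 732 and 1077 in crol males, against 6411 and 6589.5 in control males, and 615 and 2664 in crol females, against 989 and 329.9 in control females (difference -4.04 ± 1.14, adjusted p = 0.186). For both, the 2 crol female arrays differed from each other by over 2-fold, and crol male arrays were all below control male arrays. BomS2 overlapped in males and had 8646 and 8504 in crol females, against 4744 and 5163 in control females. The change of BomS2 was 0.79 in females (adjusted p = 0.0273).

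Not every peptide gene followed that pattern. The drosomycin-like gene Drsl4 had 10794 and 9316 in crol males, against 940.3 and 880.0 in control males, and 5700.0 and 5869 in crol females, against 417 and 319.7 in control females. It rose in both sexes, by 3.46 in males (adjusted p = 0.0035) and 3.99 in females (adjusted p = 0.00132), and its difference was -0.52 ± 0.23. Drsl5 had 8841 and 7413 in crol males, against 2980.0 and 3283 in control males, and 3577 and 3838 in crol females, against 1408 and 926 in control females, again higher in crol in both sexes on every array. Drsl4 and Drsl5 therefore had the direction opposite to Drs in males.

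Peptidoglycan recognition proteins sense bacteria upstream of Toll and Imd, and the median change of their list was smaller in each sex than that of the antimicrobial peptide list. Of 7 peptidoglycan recognition protein genes, 6 were below control males on both crol male arrays and none above. Over all probe sets 34% were below and 27% above. The median change of the 7 genes was -0.31 in males and 0.26 in females, with none called for the difference on 8 arrays. PGRP-LF, a membrane inhibitor of the pathway, had 345 and 411 in crol males, against 818 and 772 in control males, and 205 and 267 in crol females, against 192 and 194 in control females (difference -1.35 ± 0.23, adjusted p = 0.095, and 0.0219 with 32 arrays). PGRP-SB1 had 2582 and 2159.7 in crol males, against 10209 and 8609 in control males, and 1136 and 2526 in crol females, against 1440.0 and 993 in control females (difference -2.49 ± 0.57, adjusted p = 0.144). pirk, an intracellular inhibitor of Imd signalling, had 452 and 304 in crol males, against 919 and 879 in control males, and 434 and 434 in crol females, against 208 and 259.6 in control females (difference -2.18 ± 0.30, adjusted p = 0.0633, and 0.00324 with 32 arrays), lower in males and higher in females on every array. The bomanin BomT3 had 2156 and 1627 in crol males, against 2951 and 3358 in control males, and 788 and 734 in crol females, against 562 and 469 in control females (difference -1.32 ± 0.25, adjusted p = 0.112, and 0.0126 with 32 arrays). Haemocyte and basement membrane genes had a median change of -0.35 in males and 0.18 in females. Of 17 differences 16 were below 0, as were 5871 of 10253 over all genes, and none was called. Hml and NimC1, which mark haemocytes, were among the genes of this list. Hml had 882 and 834 in crol males, against 1228 and 996 in control males, and NimC1 had 562 and 473 in crol males, against 681 and 677 in control males. The part of haemocyte number in the immune changes was not tested.

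**Figure D2:**
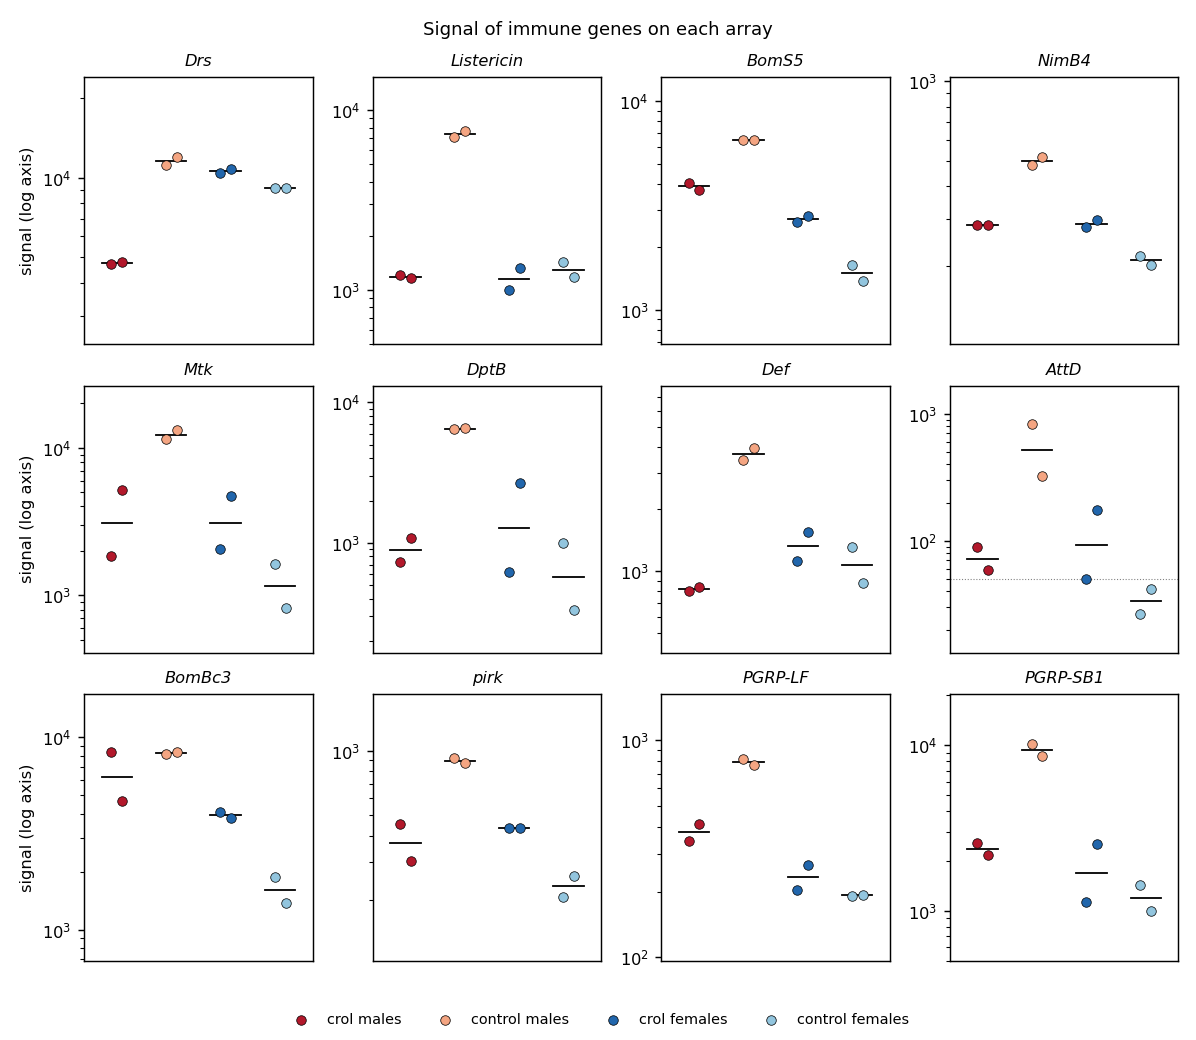
Signal on each of the 8 arrays (log axis) for 12 immune genes, with crol males, control males, crol females and control females from left to right, a line at the geometric mean of the 2 replicates and a dotted line at 50. The 12 are a selection, and Drsl4 and Drsl5, which were higher in crol males, are not among them. Control males have the highest mean for each of the 12. Only for BomBc3 does a crol male array lie between the control male arrays.

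A second set of transcripts rose in crol females and was not called in males. CG10910 on 2R had 1887 and 1885 in crol males, against 1876 and 2139 in control males, which overlap, and 1945 and 2554 in crol females, against 606 and 605 in control females. It rose 3.68-fold in females, where crol females reached the level of both male groups (difference -1.97 ± 0.22, adjusted p = 0.0487). CG1698 on 2R, a predicted transporter, had 291 and 261 in crol males, against 411 and 397 in control males, and 384 and 406 in crol females, against 138 and 145 in control females (difference -2.03 ± 0.15, adjusted p = 0.0377). It rose 2.79-fold in females (adjusted p = 0.00568), and the control male and crol female arrays lay close to each other. vanin-like on the X, related to the pantetheinases of mammals, had 152 and 149.6 in crol males, against 229.8 and 201 in control males, and 548 and 433 in crol females, against 187 and 167 in control females. Crol females were above all other arrays, a 2.75-fold rise (difference -1.97 ± 0.22, adjusted p = 0.0471). CG32284 on 3L had 106 and 106 in crol males, against 129 and 115 in control males, and 213 and 256 in crol females, against 52.6 and 64.0 in control females, and rose 4.02-fold in females (difference -2.20 ± 0.21, adjusted p = 0.0471). CG15818 on 2L, a predicted lectin, had 151 and 145 in crol males, against 169.5 and 186 in control males, and 233 and 307 in crol females, against 75.3 and 77.9 in control females, and rose 3.49-fold in females (difference -2.07 ± 0.22, adjusted p = 0.0471). Males were brighter than females in the control and dimmer in crol for CG32284 and CG15818, as for CG10910, CG1698 and vanin-like. For CG15818, males minus females (log2 signal) was 1.21 in the control, -0.86 in crol and -0.79 to 0.41 in the other insertion lines. For CG32284 it was 1.07 in the control, -1.14 in crol and -1.57 to 0.79 in the other insertion lines. The control thus lay above all insertion lines for both genes. CG14984 on 3L had 489 and 452 in crol males, against 665 and 639 in control males, and 246 and 269.7 in crol females, against 137 and 140.5 in control females. Male signals stayed above female signals in both lines, but the gap was narrower in crol (difference -1.37 ± 0.15, adjusted p = 0.0471).

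Skel on 3R, which encodes the spindle matrix and chromatin protein Skeletor, differed mainly in males. It had 129 and 156 in crol males, against 392 and 413 in control males, and 78.1 and 84.6 in crol females, against 53.5 and 55.2 in control females. It fell 2.84-fold in males (adjusted p = 0.0124), with a change of 0.58 ± 0.13 in females (adjusted p = 0.0961) (difference -2.08 ± 0.18, adjusted p = 0.0379). CG30116 on 2R, with control female arrays under 50, had 87.9 and 83.8 in crol males, against 108 and 99.7 in control males, and 59.9 and 56.0 in crol females, against 27.3 and 26.9 in control females (difference -1.37 ± 0.14, adjusted p = 0.0471, and 0.267 with 32 arrays). CG34217 on 2R was under 50 on all 4 male arrays and had 127 and 61.7 in crol females, against 3.58 and 2.78 in control females, at least 1.77-fold higher in crol females. CG43050, CG43052 and Acp76A were under 50 on all 4 female arrays, so that no change in females can be read. CG43050 had 428 and 359 in crol males, against 635 and 479.6 in control males, CG43052 had 277 and 312 in crol males, against 213 and 189 in control males and Acp76A had 824 and 936 in crol males, against 913 and 629 in control males. None of these 3 was called in males. With the spread of 32 arrays the difference passed for CG43050 (adjusted p = 0.00354) and not for CG43052 (0.156), Acp76A (0.357) or CG34217 (0.256). The last of the 17, called in females only, has no gene symbol here.

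**Figure D3:**
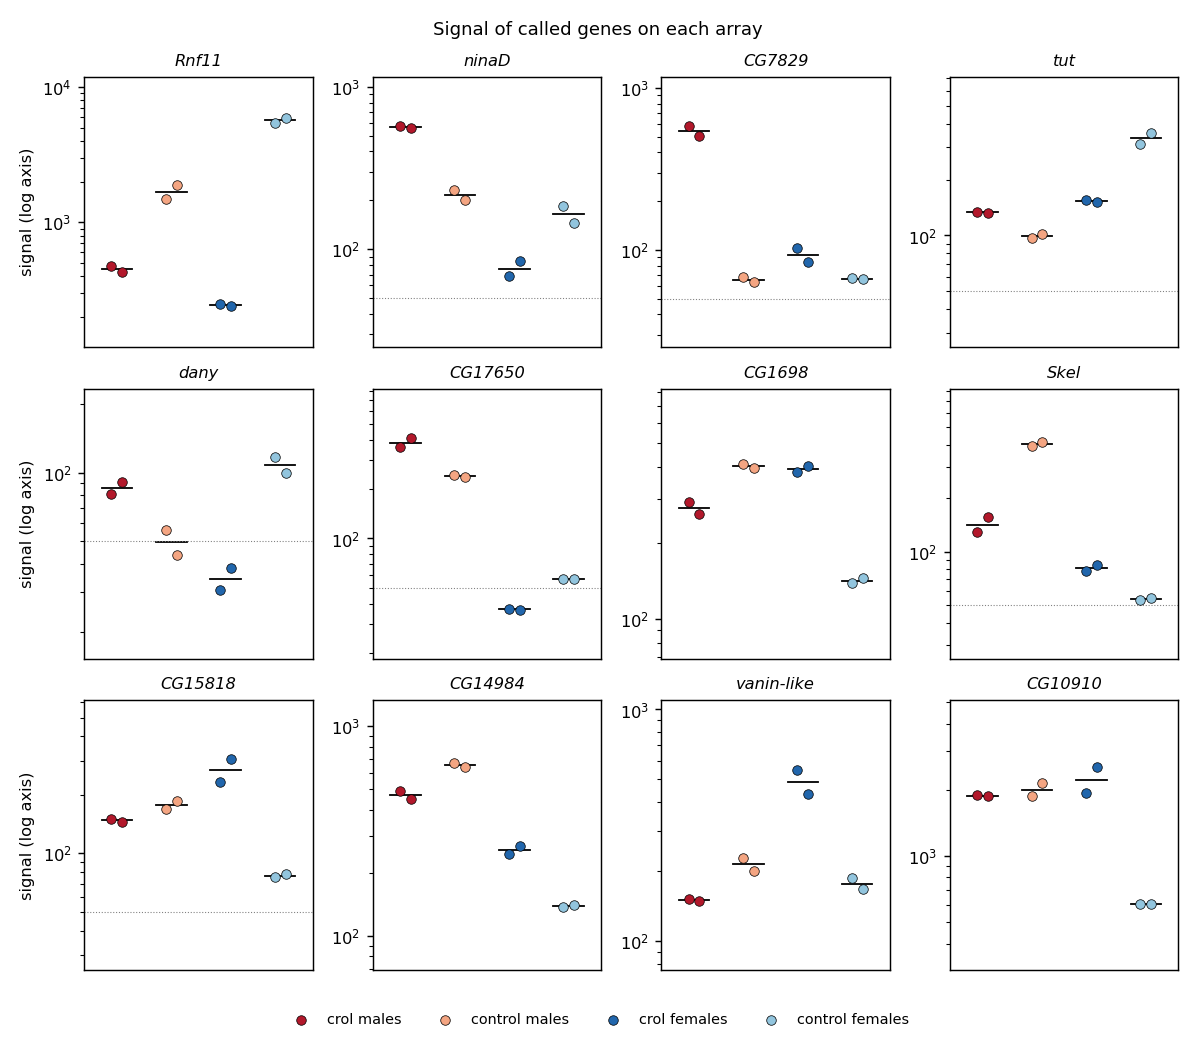
Signal on each of the 8 arrays (log axis) for 12 called genes (Rnf11 by its first probe set), in the same order of groups, with a line at the geometric mean and a dotted line at 50. Rnf11 is lower in crol in both sexes, ninaD, tut, dany and CG17650 are higher in crol males and lower in crol females, CG7829 is highest in crol males, and CG1698, CG15818, vanin-like and CG10910 have their main step between the female groups.

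Several genes measured on all 8 arrays missed the threshold on 8 arrays and passed it with the spread of 32 arrays. tay on the X, a gene of the central complex needed for walking, had 165 and 158 in crol males, against 433 and 462 in control males, and 686 and 636 in crol females, against 643 and 492 in control females. Crol males were below the 6 other arrays (difference -1.70 ± 0.21, adjusted p = 0.0562, and 0.000599 with 32 arrays). QC on 3L, a glutaminyl cyclase that modifies peptides, had 680.0 and 614 in crol males, against 1608 and 1616 in control males, and 3096 and 3327 in crol females, against 2994 and 3350.0 in control females, with no gap between the female groups (difference -1.34 ± 0.16, adjusted p = 0.0525, and 0.000833 with 32 arrays). CG34227 on 2R had 2722 and 1949.6 in crol males, against 9524 and 11853 in control males, and 1956 and 2199.5 in crol females, against 2282 and 1307 in control females, and CG17107 on 2L had 478 and 635 in crol males, against 2634 and 2858 in control males, and 554 and 642 in crol females, against 598 and 329.6 in control females. In both of these only control males were high. The adjusted p was 0.0979 for CG34227, and 0.000599 with 32 arrays, and 0.0802 for CG17107, and 0.000823 with 32 arrays. squ on 2L, a piRNA pathway gene of the germline, moved the other way, with 353 and 427 in crol males, against 187 and 166 in control males, and 1289 and 1257 in crol females, against 1476 and 1589 in control females (difference 1.41 ± 0.19, adjusted p = 0.0626, and 0.000599 with 32 arrays). Muc68E on 3L, a mucin, had 494 and 532 in crol females, against 216 and 225 in control females, and a change of -0.22 ± 0.12 in males (adjusted p = 0.364) (difference -1.44 ± 0.17, adjusted p = 0.0525, and 0.000599 with 32 arrays). Lsp2 on 3L encodes a storage protein of the larval fat body. It had 4044 and 5743 in crol males, against 183 and 128 in control males, and 286 and 710.4 in crol females, against 1925 and 537 in control females. Crol males exceeded control males 31.5-fold, and the female groups overlapped (difference 6.15 ± 1.00, adjusted p = 0.0862, and 0.00324 with 32 arrays).

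Lists of genes by tissue and pathway were described by their medians and counts. Muscle genes had a median change of -0.32 in males and 0.12 in females. Of 26 differences 22 were below 0, as were 5871 of 10253 over all genes. Both crol male arrays were below both control male arrays in 16, as they were for 34% of all probe sets. Act87E, a muscle actin, had 6849 and 6305 in crol males, against 9101 and 9722 in control males, and 3590.2 and 3628 in crol females, against 3311 and 2951 in control females (adjusted p = 0.129, and 0.0338 with 32 arrays). Tm2, tropomyosin, had 3066 and 2625 in crol males, against 3667 and 4006 in control males, and 2206 and 1998 in crol females, against 1768 and 1699.5 in control females (adjusted p = 0.159, and 0.0266 with 32 arrays). No muscle gene was called for the difference on 8 arrays, and these 2 were called with 32. Genes of starch and sugar digestion leaned the other way, with a median change of 0.07 in males and -0.48 in females. Of 12 differences 10 were above 0, as were 4382 of 10253 over all genes. Crol females were below control females on both arrays in 8 of the 12 and above in none. Over all probe sets 25.5% were below and 23.8% above. Amyrel, related to alpha-amylase, had 128 and 196 in crol females, against 616 and 524 in control females, and tobi, an alpha-glucosidase, had 2293 and 2127 in crol females, against 5628 and 4424 in control females, and both fell in females (adjusted p = 0.0245 and 0.0368). In males tobi overlapped. Digestive lipases had medians of 0.26 in males and -0.34 in females over 12 genes, and none was called for the difference on 8 arrays.

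Egg genes lay higher on the crol female arrays. Of 20 yolk, chorion and vitelline membrane genes, 13 were above control females on both arrays and none below. Over all probe sets 23.8% were above and 25.5% below. The median change of the 20 genes in females was 0.91, and none was called in females. Their summed signal was 144146 and 135023 in crol females, against 114962 and 83583 in control females. The control female arrays differed from each other in chorion genes. Cp18 had 6623 and 7435 in crol females, against 2991 and 271 in control females. yellow-g, expressed in follicle cells, had 2356 and 2783 in crol females, against 716 and 1048 in control females, and was under 50 on both crol male arrays and 1 control male array. Ovarian germline and maternal genes did not share that direction, with a median of -0.15 in females. The part of ovary size or egg stage in the female calls was not tested.

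**Figure D4:**
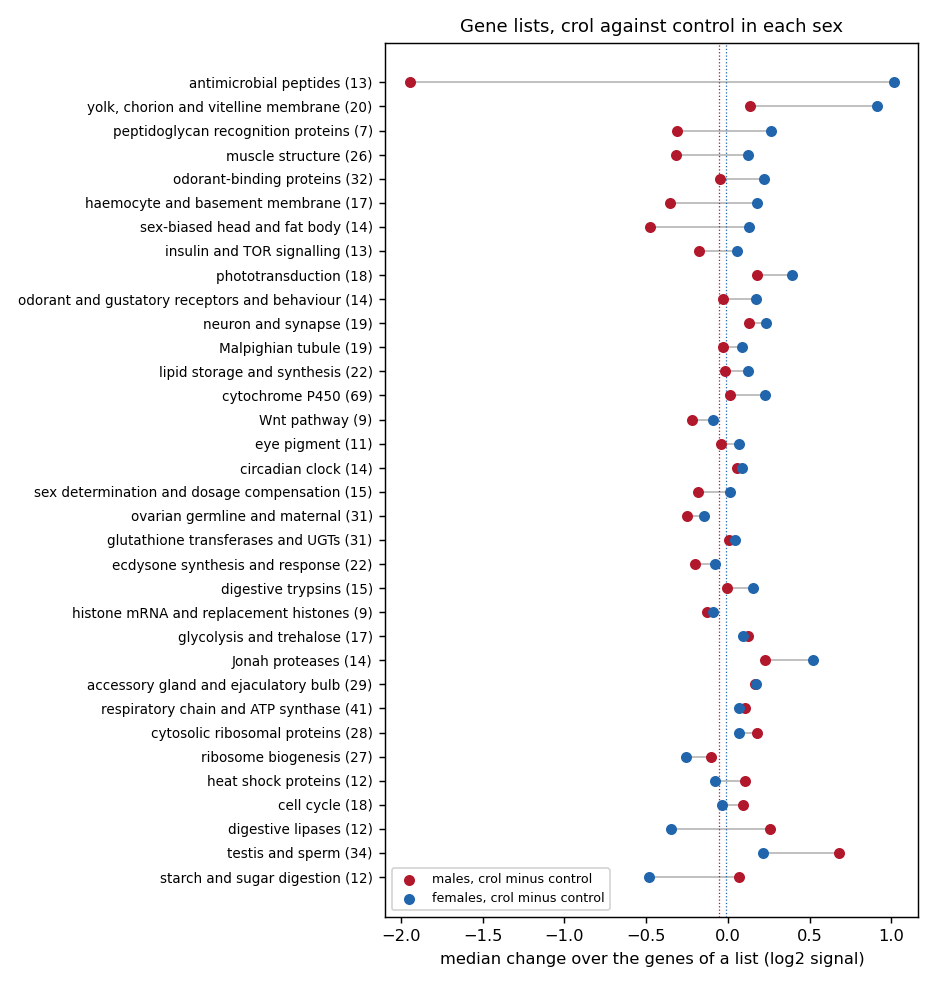
Median change of each gene list in males (red) and in females (blue), log2 of crol over control, with the number of measured genes in brackets, lists of at least 5 genes sorted by the difference, and dotted lines at the medians of all genes. Antimicrobial peptides have the widest gap, -1.95 in males and 1.02 in females.

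Some of the widest changes in the crol line were shared by both sexes. Eip63E, an ecdysone-induced cyclin-dependent kinase, had 72.01 and 77.6 in crol males, against 1018 and 1064 in control males, and 80.9 and 91.6 in crol females, against 1292 and 1367 in control females. The change was -3.80 in males (adjusted p = 0.000586) and -3.95 in females (adjusted p = 0.000423), and the difference was 0.15 ± 0.16 (adjusted p = 0.702). It was the only gene of the ecdysone list called in either sex, and of its 22 genes none was called for the difference. The trypsin betaTry had 201 and 416 in crol males, against 11108 and 12857 in control males, and 227 and 201 in crol females, against 13134 and 10576 in control females, with a difference of 0.42 ± 0.49 (adjusted p = 0.736). The trypsins epsilonTry and lambdaTry also fell in both sexes. The trypsin list as a whole did not, with a median change of -0.002 in males and 0.16 in females over 15 genes. In males 3 of the 15 were called lower and 0 higher (0.399% and 0.312% of all probe sets). In females 3 were called lower and 2 higher (0.831% and 1.58%). lambdaTry had 29.8 and 32.8 in crol males, against 2340.0 and 1885 in control males, and 11.5 and 8.67 in crol females, against 1979 and 2005 in control females, where all crol arrays are under 50 and the gap between the sexes cannot be measured. UGP, which makes UDP-glucose, had 1034 and 951 in crol males, against 34.7 and 57.3 in control males, and 694 and 606 in crol females, against 10.9 and 23.7 in control females, higher in crol in both sexes. TpnC4, a flight muscle troponin C, had 298 and 323 in crol males, against 1068 and 1062 in control males, and 93.7 and 84.6 in crol females, against 413 and 498 in control females, and fell in both (difference 0.57 ± 0.19, adjusted p = 0.23).

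The contrast with the control does not show whether a sex difference belongs to the crol line or to the control. Males minus females within each line (log2 signal) is therefore given for all 8 lines. In 26 of the 41 called probe sets crol was the most extreme of the 8 lines in the direction of its call, and in 27 the control was the most extreme in the opposite direction. Among the 17 of the 41 with signals of at least 50 on all 8 arrays, these numbers were 7 and 12. The others include signals under 50, which have no order. Over all 12518 probe sets the numbers were 3424 and 2099, and the choice of the 41 favours both. Comparisons of other lines with the control share its arrays and are not used. The second Rnf11 probe set was 2.22 in crol, 1.15 to 2.13 in the other 6 insertion lines and -0.58 in the control, and the first was 0.88 in crol, 0.33 to 1.46 in the 6 and -1.75 in the control. All 7 insertion lines were male-biased there and the control was female-biased. BomS5 was 0.52 in crol, 0.10 to 1.46 in the 6 and 2.12 in the control, and CG10910 was -0.24, -0.31 to 1.15 and 1.73 in the same order, so that both likewise had the control outside the insertion lines. Drs was -1.16 in crol, close to -1.17 in esg, and 0.33 in the control. Def was -0.69 in crol, within the -1.10 to 2.11 of the 6, and 1.79 in the control. BomT3 was 1.30 in crol, within the 0.46 to 2.52 of the 6, and 2.62 in the control. PGRP-LF was 0.69 in crol, the lowest of the 8 lines, 1.02 to 2.02 in the 6 and 2.04 in the control. ninaD was 2.90 in crol, within the 0.32 to 3.11 of the other lines.

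A test without the control, crol males minus females against the mean of the 6 other lines (28 arrays), called 144 probe sets (1.15%), 60 higher (0.479%) and 84 lower (0.671%). It shared 4 with the 41 and 79 with the 317, and it uses the same crol arrays, so the overlap is not independent. The 4 were Skel, Listericin, tut and CG43050. CG43050 was under 50 on 16 of the 32 arrays, both crol female arrays among them (24.0 and 31.1), so that its call rests on signals with no order. Listericin was 0.05 in crol, the lowest of 8 lines, 0.61 to 3.03 in the 6 (difference from the 6 -1.69 ± 0.33, adjusted p = 0.0251). Skel was 0.80 in crol, also the lowest, 0.93 to 2.46 in the 6 (adjusted p = 0.0461) and 2.89 in the control. tut was -0.20 in crol, -1.99 to -0.00 in the 6 and -1.74 in the control (adjusted p = 0.0213), with mub above crol. CG34227 had the smallest adjusted p, 0.000518, at 0.15 in crol and 1.03 to 2.69 in the 6. pirk was -0.23 in crol and 0.12 to 1.95 in the 6 (adjusted p = 0.0352), squ -1.71 and -3.11 to -2.16 (adjusted p = 0.00698), and QC -2.31 and -2.39 to -0.85 (adjusted p = 0.00988). tay was -2.03 in crol, -2.22 to -0.54 in the 6 and -0.33 in the control (adjusted p = 0.0187). The Rnf11 probe sets (adjusted p = 0.988 for the first and 0.39 for the second) and Drs (adjusted p = 0.0979) did not pass this test. Without crol male replicate 2 it called 19 probe sets, without crol female replicates 1 and 2 it called 54 and 60, and without crol male replicate 1 it called 182.

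**Figure D5:**
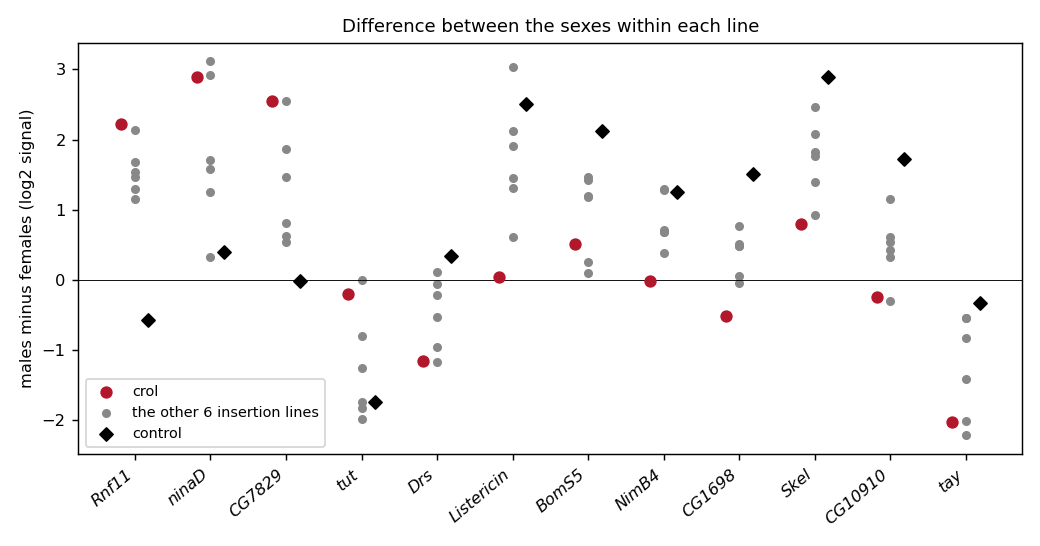
Males minus females within each line (log2 signal) for 12 genes (Rnf11 by its second probe set), with crol in red, the other 6 insertion lines in grey and the control as a black diamond. The control lies outside all 7 insertion lines for Rnf11, CG7829, Drs, BomS5, CG1698, Skel, CG10910 and tay, and crol is the lowest of the 8 lines for Listericin, NimB4, CG1698 and Skel.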

How the data were processed

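The authors hybridised RNA of whole flies to Affymetrix Drosophila Genome 2.0 arrays, 2 arrays for each of 16 groups of line and sex, and deposited MAS5 signals, an intensity on a linear scale with a trimmed mean of 500 on each array. Of 18952 probe sets, 12518 were kept that reached a signal of 50 on both replicates of at least 1 of the 16 groups. Symbols came from the platform annotation and were updated through RefSeq, which gave 11072 kept probe sets 1 symbol, 342 several and 1104 none. Log2 signals were fitted with limma 3.58.1 in R 4.3.3, with 1 mean for each group, and p-values were adjusted over the 12518 probe sets by the Benjamini-Hochberg method. The 8-array fit held 4 residual degrees of freedom. The number of arrays limits the precision.

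Folds are ratios of geometric means, with signals under 50 raised to 50 where a bound is given. Named genes were the called genes with the widest differences of each sign, those called in 1 sex or with opposite signs, called list members, tay and calls shared with the test against the other lines. The members and lists were chosen with earlier results of these data known. In simulated data of 12518 probe sets the line by sex test recovered 1% of 2-fold and 39% of 4-fold differences on 8 arrays, and 42% and 75% with the spread of 32 arrays. Other scalings, filters, variance models and arrays left out were tried.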

Additional observations from a re-analysis of the deposited data

Results flagged for a closer look

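The change between crol and control differed between males and females, by limma's test of that difference, for 41 probe sets. The log2 change in males minus that in females was above 0 for hog (3.83), CG11694 (2.75), CG7829 (2.57), CG15263 (3.54), Rnf11 (2.79), CG32832 (2.68), Acp63F (3.26), tut (1.54), CG31021 (2.39), ninaD (2.51), CG42266 (3.90), CG9316 (1.85), CG17343 (2.67), CG5561 (3.49), dany (2.44) and CG17650 (1.30). It was below 0 for CG1698 (-2.03), CG43050 (-3.44), Skel (-2.08), Drs (-1.49), CG32284 (-2.20), Listericin (-2.46), CG34217 (-4.82), CG15818 (-2.07), CG14984 (-1.37), BomS5 (-1.61), vanin-like (-1.97), Acp76A (-2.87), CG10910 (-1.97) and NimB4 (-1.27). The log2 values of genes with signals under 50 in 1 sex include unordered signals and do not measure a fold. No group here has enough arrays to test a single array against its group.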

How the results depend on the processing

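The difference between the sexes called 41 probe sets, and 51 after quantile normalization (31 higher, 20 lower), 38 after quantile normalization within each sex (28 higher, 10 lower), 60 with arrays centred on their medians (32 higher, 28 lower) and 59 with the filter over 4 groups. It called 95 at a mean signal of at least 100, 710 with signals raised to 50 (365 higher, 345 lower), where groups raised to the same value have no spread by construction, 359 with 32 added, 128 with untransformed signals, 245 with an intensity trend (62 higher, 183 lower) and 317 with 32 arrays (81 higher, 236 lower). It called 0 with no filter (limma, 2142 with an unadjusted p under 0.05) and 0 with analysis of variance without moderation (1960). The change in males called 89 probe sets, against 605 after quantile normalization, 55 with no filter, 212 at a mean of at least 100, 2294 with signals raised to 50, 1546 with 32 added, 56 without moderation, 777 untransformed, 533 with a trend and 715 with 32 arrays. The change in females called 302, against 184 after quantile normalization, 85 with no filter, 71 without moderation, 175 untransformed, 575 with a trend and 607 with 32 arrays. Against the other 6 lines 144 were called (60 higher, 84 lower), 553 after quantile normalization (190 higher, 363 lower), 255 with centred arrays (56 higher, 199 lower), 2040 with signals raised to 50 and 43 with no filter. Leaving out 1 array gave 0 to 17 calls for the difference, 4 to 74 in males, 69 to 312 in females and 19 to 182 against the other lines. The cause of these shifts was not tested.

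The replicate numbers did not pair the samples, since deviations of same-numbered arrays from their group means correlated at r = -0.09 to 0.01. With the replicate number as a block, the difference called 0 probe sets (limma, 1812 with an unadjusted p under 0.05), the change in males 49, the change in females 85 and the test against the other lines 122.

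Among named genes, the difference changed sign for CG15263 with untransformed signals (-639), for Acp63F (-0.054 with signals raised to 50, -208 untransformed), for CG31021 (-0.11 raised) and for Acp76A (0.21 raised, 95.8 untransformed). Each of these has signals under 50 in females. Of 31 named genes, 31 kept their direction and side of the threshold with the filter over 4 groups, 20 with quantile normalization and 19 with 32 arrays, but 1 with no filter, 1 without moderation, 1 with the replicate block and 1 to 4 with 1 array left out. Signals under 50 limit what can be read in females, where 2456 probe sets were dim on every array.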
